A study of Mus musculus with 14 samples.

Results

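The genes described here are Gata2, Gata3 and Gata5, which encode GATA transcription factors, and Zfpm1 and Zfpm2, which encode the FOG cofactors FOG1 and FOG2. Accessible regions listed by ATAC-seq in 14 libraries were merged where they overlapped by 1 bp or more. A region belonged to one of these genes when its nearest protein-coding transcription start site (TSS) lay within 50 kb and was a start of that gene. This rule gave 43 of 124598 regions in GRCm38, with 14 at Zfpm1, 11 at Gata3, 9 at Gata2, 5 at Gata5 and 4 at Zfpm2. All libraries came from KH2 mouse embryonic stem (ES) cells of strain C57BL/6 that carried the transgene TRE:GATA6-DSREd2, in which a tetracycline response element places GATA6 under the control of doxycycline (Dox). The study asked how chromatin opens and closes while GATA6 drives these cells towards primitive endoderm (PrE). Libraries were made from 50000 cells at 0, 2, 4, 8, 16, 24 and 48 h, with 2 libraries per time point. Cells at 0 h were kept in serum-free 2i medium with LIF and no Dox. Induced cells were in serum medium with LIF and Dox at 1 µg/mL, and those of 16, 24 and 48 h had Dox for 12 h and none afterwards. The change of medium and the induction cannot be told apart at 0 h, and cells in serum without any Dox were not among the libraries. The study describes its replicate experiments as independent, but the labels do not say what was separate, so p-values measure only the spread between libraries.

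GATA factors are zinc finger proteins that bind the sequence for which they are named. Gata2 and Gata3 are known for blood, sympathetic and trophoblast development, and Gata5 for heart and endoderm, where it overlaps in function with Gata4 and Gata6. FOG proteins do not need to bind DNA themselves: they attach to the amino-terminal zinc finger of a GATA factor and bring in corepressors such as CtBP and the NuRD complex, and FOG1 is an obligate partner of GATA1 in red cells and megakaryocytes.

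The stretches of 6 regions are printed here, chosen after their values were seen: 5 from regions that opened and hold 2 to 5 GATA motifs in the stretch, and 1 from the Gata3 region that closed. The choice leaves out a rising Gata2 region in a UTR exon and a falling one far upstream of Gata2, which hold 0 motifs. Each is up to 300 bases at the centre of its region, read 5′ to 3′ on the plus strand of GRCm38. None overlaps an annotated exon. Capitals mark the GATA motif, which is AGATAA or TGATAA or either of these with G as its last letter, on the plus strand or as its reverse complement, and adjoining motifs share 1 run of capitals.

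Gata2 24154 bp upstream, rose, chr6:88169587-88169886: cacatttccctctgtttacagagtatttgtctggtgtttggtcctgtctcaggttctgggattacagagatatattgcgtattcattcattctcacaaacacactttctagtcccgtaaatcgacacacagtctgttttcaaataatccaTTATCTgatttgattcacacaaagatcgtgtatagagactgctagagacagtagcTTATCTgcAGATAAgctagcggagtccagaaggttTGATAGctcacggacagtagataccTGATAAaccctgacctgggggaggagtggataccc
Gata2 2989 bp upstream, gained, chr6:88190752-88191051: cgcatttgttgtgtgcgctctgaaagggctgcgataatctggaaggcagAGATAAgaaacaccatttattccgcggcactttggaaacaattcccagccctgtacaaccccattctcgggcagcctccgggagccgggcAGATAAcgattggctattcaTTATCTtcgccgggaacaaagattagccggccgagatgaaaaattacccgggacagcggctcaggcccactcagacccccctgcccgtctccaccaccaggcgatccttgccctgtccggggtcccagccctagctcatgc
Gata3 18248 bp downstream, rose, chr2:9860202-9860501: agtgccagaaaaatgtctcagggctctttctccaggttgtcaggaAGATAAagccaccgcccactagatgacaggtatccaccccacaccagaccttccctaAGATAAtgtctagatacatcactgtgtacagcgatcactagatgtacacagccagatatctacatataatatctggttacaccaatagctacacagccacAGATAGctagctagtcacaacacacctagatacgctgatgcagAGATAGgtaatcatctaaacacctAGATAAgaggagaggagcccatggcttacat
Zfpm1 14569 bp downstream, rose, chr8:122296560-122296859: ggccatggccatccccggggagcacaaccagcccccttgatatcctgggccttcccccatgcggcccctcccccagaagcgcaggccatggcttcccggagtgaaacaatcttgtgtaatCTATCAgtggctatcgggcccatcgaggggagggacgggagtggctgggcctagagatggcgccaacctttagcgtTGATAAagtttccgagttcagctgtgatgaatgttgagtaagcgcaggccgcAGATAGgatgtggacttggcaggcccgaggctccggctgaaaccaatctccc
Zfpm1 31280 bp downstream, rose, chr8:122313271-122313570: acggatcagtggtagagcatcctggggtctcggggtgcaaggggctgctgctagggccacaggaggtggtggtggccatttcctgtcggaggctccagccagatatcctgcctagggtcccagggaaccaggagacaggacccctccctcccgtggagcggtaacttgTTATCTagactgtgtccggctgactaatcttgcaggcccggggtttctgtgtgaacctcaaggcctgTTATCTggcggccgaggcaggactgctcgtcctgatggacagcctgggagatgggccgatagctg
Gata3 14134 bp upstream, fell, chr2:9904018-9904317: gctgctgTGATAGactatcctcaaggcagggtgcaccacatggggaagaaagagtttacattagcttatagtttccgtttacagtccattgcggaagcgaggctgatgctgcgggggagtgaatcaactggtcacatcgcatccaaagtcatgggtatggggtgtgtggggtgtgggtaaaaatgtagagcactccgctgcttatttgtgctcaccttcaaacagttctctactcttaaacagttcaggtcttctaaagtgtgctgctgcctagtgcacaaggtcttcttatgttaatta

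The stretch at Gata2 24154 bp upstream held 5 motifs, that at Gata3 18248 bp downstream also 5, and that at Zfpm1 14569 bp downstream held 3. The Gata3 region that fell held 1, outside its central 200 bp. A match of letters is a description of the sequence and shows no binding.

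Whole lists held between 55588 and 65073 peaks per library, and between 19 and 28 of the 43 regions were called in each. The mean number of regions per time point was highest at 8 h, with 28 and 25, and lowest at 0 h, with 19 and 21. Replicate 2 of 16 h and of 48 h also had 25, and replicate 1 of 2 h and replicate 2 of 24 h also had 21. Of the calls made at these regions, 87.9% were shared by both libraries of their time point, against 85.4% over all regions. Of 5 ES cell markers, the promoters of Pou5f1, Sox2 and Esrrb were called in all 14 libraries, that of Klf4 in 9 and that of Nanog in 8, with both libraries at 0 h and 0 at 48 h. Of 5 PrE markers, those of Gata6, Sox17 and Pdgfra were called in all 14, Sox7 in 13 and Gata4 in 12. Of 3 fibroblast markers, the Col1a1 promoter was called in 0 libraries, while Thy1 was called in 11 and Postn in 10, both with 0 at 48 h. Of 3 trophectoderm markers Cdx2 and Eomes were called in 14 and Elf5 in 13. The part of other cells in the results below was not tested. In bulk libraries, fewer cells with an open region and less opening per cell cannot be told apart.

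**Figure D1:**
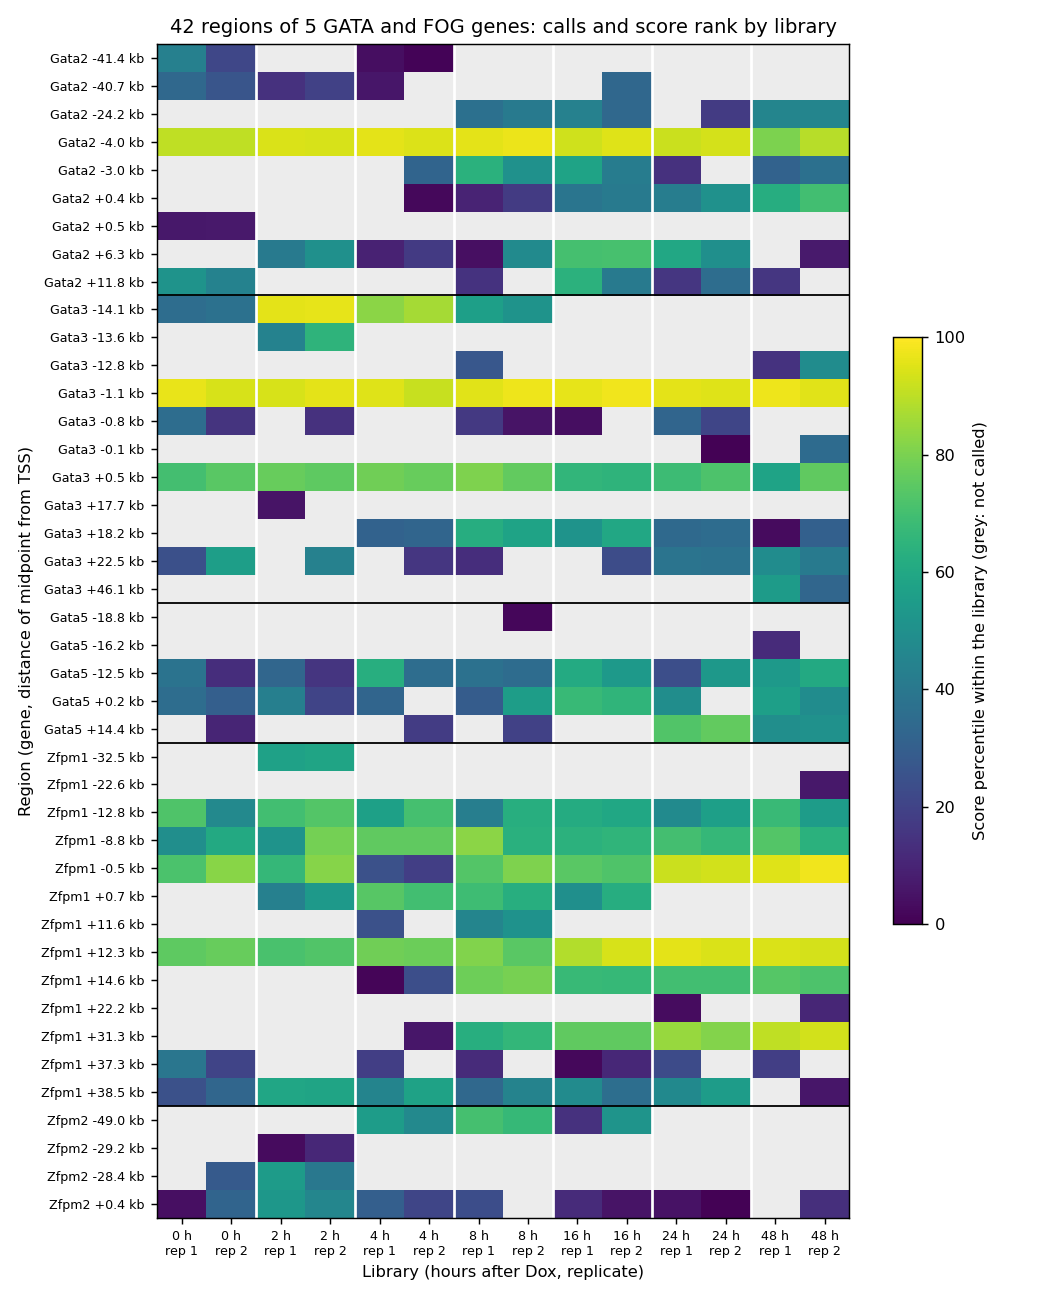
Each row is 1 of 42 of the 43 regions, named by its gene and the distance of its midpoint from the nearest TSS (kb, downstream positive), and each column is 1 library. Colour gives the percentile of the region's highest peak score among all peaks of that library, and grey marks a region that was not called. Zfpm1 +14.6 kb and +31.3 kb turn from grey to coloured after 2 h, Gata3 -14.1 kb turns grey after 8 h, and Zfpm1 +0.7 kb is coloured from 2 to 16 h alone.

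A region was counted as gained when both libraries of a time point called it and neither 0 h library did, as lost in the reverse case, and as shared when all 4 called it. At 48 h the 5 genes had 8 gained, 5 lost and 10 shared regions. The gained regions were 34.8% of these 23, against a background of 29.1% over all regions, and the lost ones 21.7%, against 33.3%. Gata2 had 3 gained and 3 lost regions, Gata3 had 3 and 2, and Zfpm1 had 2 and 0. No region of Gata5 was gained or lost at any time point, and none of Zfpm2 at 48 h. No p-value is given for these counts, since an exact two-sided test of 2 libraries against 2 cannot go below 0.333.

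Gains stood furthest above the background at 8 h and were nearer to it at 2 and 4 h. At 2 h, 6 of 23 classified regions were gained, 26.1% against a background of 20.5%, and 4 were lost, 17.4% against 14.8%. At 4 h, 6 of 21 were gained, 28.6% against 23.1%, and 3 were lost, 14.3% against 16.8%. At 8 h, 11 of 26 regions were gained, a share of 42.3% against 24.5%, and 3 were lost, 11.5% against 22.0%. Zfpm1 supplied 5 of those 11 and Gata2 supplied 4. At 16 h, 10 were gained (background 27.8%) and 3 were lost (20.3%) of 26, and at 24 h 5 were gained (25%) and 4 were lost (28.5%) of 22. The gained regions thus numbered fewer at 24 and 48 h than at 8 h, and every time point is compared with the same pair of 0 h libraries.

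A trend over time was tested for each region called in 2 to 12 libraries, on the ranks of the times at which it was called, with a two-sided exact permutation test and p-values adjusted by Benjamini and Hochberg's method over all 79559 such regions. Of the 30 regions of the 5 genes that could be tested, 5 rose and 2 fell, against backgrounds of 12.1% and 12.3%, and 12 had an unadjusted p under 0.05. The rising regions were 2 at Gata2, 2 at Zfpm1 and 1 at Gata3, and the falling ones 1 at Gata2 and 1 at Gata3. Without the 0 h libraries, so within serum medium alone, 0 of them rose. Adjusted p was between 0.0605 and 0.0902 for these 5 regions in the same exact test over 12 libraries. At both Zfpm1 regions, the Gata3 region and 1 Gata2 region, calls were then lacking only at 2 h, or there and in 1 library of 4 h. For their numbers of calls no smaller p was possible, so this result does not show that their rise was absent within serum.

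Zfpm1, the gene of FOG1, had the most regions and the most regions open throughout. The region 14569 bp downstream of its start, inside an intron, was called in neither library at 0 and 2 h and in both from 4 h onwards (exact permutation test, adjusted p = 0.0130). Its score stood at percentiles 1.34 and 24.2 of the 2 lists at 4 h, at 77.8 and 79.6 at 8 h, and at 73.8 and 72.0 at 48 h. When it first appeared it thus stood in the lower part of both lists, near the bottom of 1 alone, and in the upper part from 8 h on. The region 31280 bp downstream was called in 0 libraries at 0 and 2 h, in 1 at 4 h and in both from 8 h onwards (exact permutation test, adjusted p = 0.0130). Its percentiles were 5.99 in the 4 h library that called it, 62.6 and 66.2 at 8 h, 75.6 and 75.5 at 16 h, 84.4 and 81.5 at 24 h, and 90.5 and 93.2 at 48 h. Both regions hold 5 GATA motifs over their whole length, and the call of neither was lost when any of the 14 libraries was left out.

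A second group of Zfpm1 regions was open only between the ends of the time course. The region 708 bp downstream of the TSS, in an intron of Zfpm1, was called in both libraries at 2, 4, 8 and 16 h and in none at 0, 24 and 48 h. Its percentiles were 43.7 and 53.8 at 2 h, 74.1 and 69.6 at 4 h, 68.8 and 62.6 at 8 h, and 49.9 and 62.5 at 16 h. Replicates lay closer to each other at 4 h than the 4 h values did to those of 2 h. A region 11557 bp downstream was called in 1 library at 4 h and both at 8 h, and one 32512 bp upstream in both libraries of 2 h alone. The regions 708 and 11557 bp downstream hold 3 and 4 GATA motifs, and the one 32512 bp upstream holds 0. These Zfpm1 regions also lie in introns of Gm20388, a gene model that overlaps Zfpm1, so the assignment to Zfpm1 rests on the nearest TSS alone.

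Over all 5 genes, 7 of the 30 testable regions were transient, absent from all 0 h and 48 h lists and present in both lists of at least 1 other time point, where 21.7% of all testable regions were. The 3 of them called at 2 h alone, at Zfpm1 32512 bp upstream, Gata3 13637 bp upstream and Zfpm2 29194 bp upstream, held 0 GATA motifs in their central 200 bp. The Gata3 one lay less than 100 bp from the Gata3 region 14134 bp upstream, which was called from 0 to 8 h. The 4 called in an 8 h library, 3 at Zfpm1 and 1 at Zfpm2, all held the motif there. Over all regions of these kinds, the motif was in 26.3% of 1918 called at 2 h alone and in 65.1% of 9710 called at 8 h. These regions were sorted after their calls had been seen, and no test was made.

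**Figure D2:**
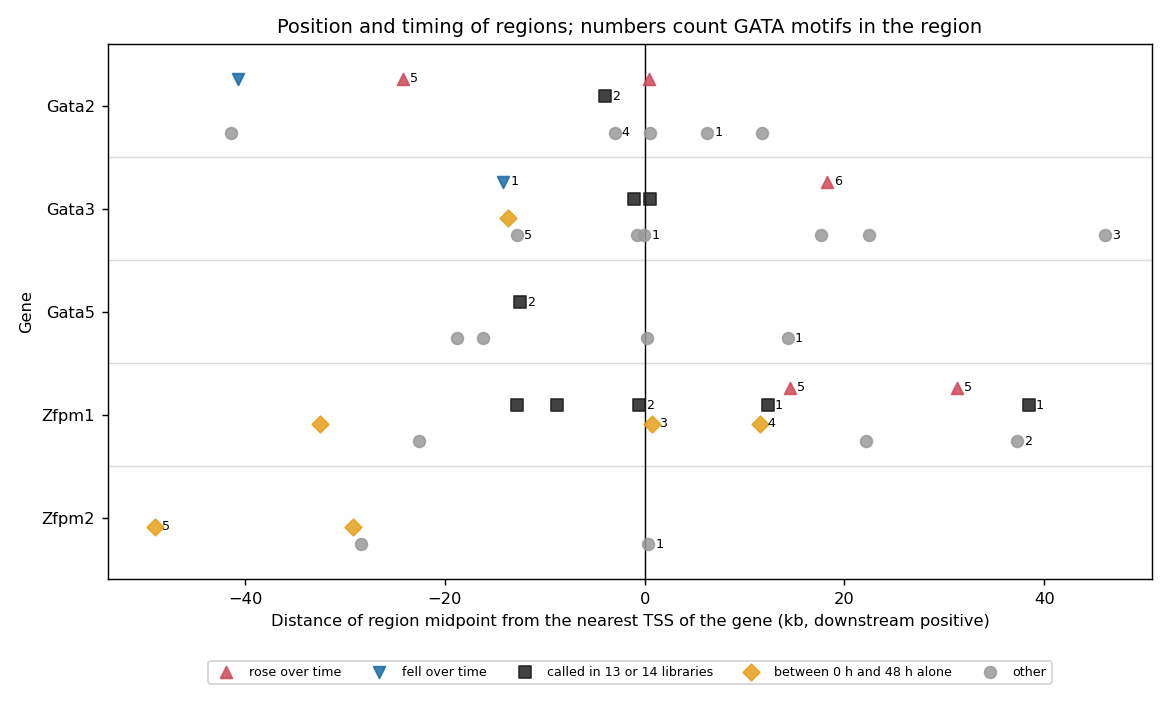
Each symbol is 1 of 42 of the 43 regions, placed by the distance of its midpoint from the nearest TSS of its gene (kb, downstream positive), with symbols of 1 gene spread vertically by class so that they do not hide each other. The number beside a symbol counts GATA motifs in the whole region, and no number means 0. The rising regions with motifs and the transient regions with motifs lie away from the start sites or in introns, and of the falling regions only that of Gata3 holds a motif.

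The promoter region of Zfpm1, with its midpoint 534 bp upstream and spanning the TSS, was called in all 14 libraries but changed rank. Its score percentiles were 71.8 and 82.1 at 0 h, 66.5 and 81.8 at 2 h, 24.9 and 18.6 at 4 h, 73.2 and 80.7 at 8 h, 74.6 and 72.6 at 16 h, 91.9 and 93.3 at 24 h, and 94.9 and 97.8 at 48 h. Both 4 h libraries were low, and peaks there covered 216 and 233 bp of the 1180 bp region, against 1074 and 1069 bp at 0 h. The 24 and 48 h libraries lay above all others. The intronic region 12349 bp downstream of the TSS, also called in every library, had percentiles of 75.3 and 76.9 at 0 h, 71.2 and 72.7 at 2 h, 78.3 and 77.4 at 4 h, and 81.2 and 74.4 at 8 h. It then stood at 88.5 and 93.9 at 16 h, 95.8 and 94.4 at 24 h, and 94.2 and 93.7 at 48 h, so that all 6 late libraries lay above all earlier ones.

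The 8 regions called in all 14 libraries, of 18809 such regions in all, were compared by this score percentile between late (16, 24 and 48 h) and early (0, 2 and 4 h) libraries, with an exact two-sided permutation test and Benjamini-Hochberg adjustment over all 18809. This test was added after the calls had been seen, and a percentile ranks a peak within its own list only. Of the 8, 1 was higher late and 0 lower, against backgrounds of 18.8% and 8.46%, and 4 had an unadjusted p under 0.05. The Zfpm1 region 12349 bp downstream rose from a mean of 75.3 to 93.4 (adjusted p = 0.0170, exact permutation test), where 0.00216 is the smallest unadjusted p that 6 against 6 can give. The Zfpm1 promoter averaged 57.6 early and 87.5 late (exact permutation test, adjusted p = 0.0670). The Zfpm1 regions 12819 and 8793 bp upstream averaged 65.0 and 65.2 early and 58.1 and 67.3 late, with adjusted p of 0.307 and 0.801 in the same exact test. Among the other Zfpm1 regions, that 38482 bp downstream was called in 13 libraries, that 37281 bp downstream in 8, that 22204 bp downstream in 1 each at 24 and 48 h, and that 22567 bp upstream in 1.

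**Figure D3:**
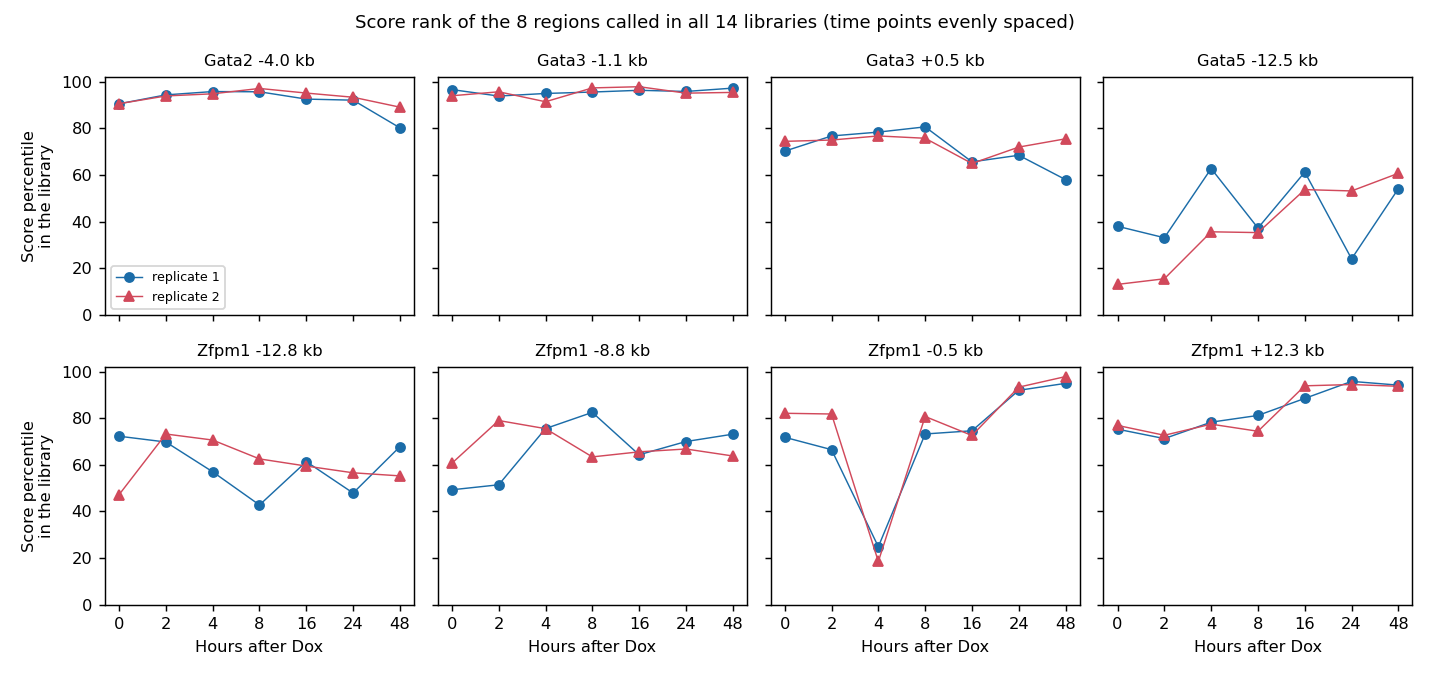
Each panel is 1 of the 8 regions called in all 14 libraries, with the percentile of its score within the library against hours after Dox (time points evenly spaced) and 1 symbol per library, circles for replicate 1 and triangles for replicate 2. At Zfpm1 +12.3 kb the 6 libraries from 16 h on lie between 88.5 and 95.8, and the Zfpm1 promoter (-0.5 kb) drops to 24.9 and 18.6 at 4 h and reaches 94.9 and 97.8 at 48 h.

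Gata2, a factor of blood stem cells and trophoblast, had 3 regions gained and 3 lost at 48 h against 0 h. The region 419 bp downstream of the downstream one of its start sites, which overlaps a UTR exon and holds 0 GATA motifs, was called in 0 libraries at 0 and 2 h, in 1 at 4 h and in both from 8 h onwards (exact permutation test, adjusted p = 0.0130). Its percentiles were 2.27 in 1 library of 4 h, 9.82 and 17.4 at 8 h, 38.9 and 40.7 at 16 h, 42.5 and 50.5 at 24 h, and 62.4 and 69.6 at 48 h, and the ranges of successive time points did not overlap. In contrast, the region 523 bp downstream of the upstream start site was called in both libraries at 0 h, at percentiles 6.36 and 6.84, and in no library afterwards (exact permutation test, adjusted p = 0.0541, and 0.0410 or 0.0411 without 1 of the 48 h libraries). The 48 h libraries did not call it, so leaving 1 out changed only the possible orders and not its calls. Leaving out another library gave up to 0.0603 in the same exact test. That region was near the bottom of both lists that held it. Neither of these regions, which lie within 1 kb of a Gata2 start site but do not span one, contained the motif.

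The Gata2 region 24154 bp upstream, intergenic and with 5 motifs, was called in neither library at 0, 2 and 4 h, in both at 8, 16 and 48 h and in 1 at 24 h. Its percentiles were 37.0 and 41.2 at 8 h, 43.8 and 33.7 at 16 h, 17.3 in 1 library at 24 h, and 45.4 in each at 48 h. Its rise passed the exact permutation test (adjusted p = 0.0451), but leaving out any of 11 of the 14 libraries ended the call, at adjusted p between 0.0540 and 0.0584: every library of 0, 2, 4, 8 and 48 h and replicate 2 of 24 h. The region 2989 bp upstream, with 4 motifs, was called in 1 library at 4 h, both at 8 and 16 h, 1 at 24 h and both at 48 h, with percentiles from 14.4 to 63.9 (exact permutation test, adjusted p = 0.0546). It passed without replicate 2 of 24 h (0.0213) and among the 50000 highest peaks (0.0484). With all libraries and peaks, the region 24154 bp upstream thus lay just inside the threshold and that 2989 bp upstream just outside it. The adjacent region 3956 bp upstream was called in all libraries at percentiles between 80.3 and 97.1, averaging 93.4 early and 90.4 late (exact permutation test, adjusted p = 0.393).

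A pair of neighbouring regions far upstream of Gata2 were called mainly in the early libraries. The region 40700 bp upstream was called in both libraries at 0 and 2 h, in 1 at 4 h and 1 at 16 h, and in no other, at percentiles from 5.88 to 33.9 (exact permutation test, adjusted p = 0.0451). Without either library of 2 h or 24 h, or replicate 1 of 4 h, that call was lost in the exact permutation test, at adjusted p between 0.0540 and 0.0571, and it was also lost among the 50000 highest peaks per library (adjusted p = 0.115). The region 41398 bp upstream was called in both libraries at 0 and 4 h alone, at percentiles of 43.4 and 21.3 at 0 h and 3.56 and 1.11 at 4 h (exact permutation test, adjusted p = 0.0646), and it passed without either 2 h library (0.0470 and 0.0475) and among the 50000 highest peaks (0.0477). Both are intergenic and hold 0 GATA motifs. The other regions of Gata2, 6264 bp downstream in a coding exon and 11768 bp downstream, were called in 11 and 8 libraries. The first was called in neither library at 0 h, in both at 2, 4, 8, 16 and 24 h and in 1 at 48 h. The second was called in both at 0, 16 and 24 h, in 1 each at 8 and 48 h and in none at 2 and 4 h. Their exact permutation test adjusted p were 0.571 and 0.649. That test looks for calls shifted early or late and can miss such patterns.

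Gata3, which marks trophectoderm and T cells among other lineages, kept some regions near its start sites open in every library, but not all. Its regions that passed the trend test were distal. The region 1094 bp upstream was called in every library at percentiles between 91.4 and 97.9, and averaged 94.5 early and 96.3 late (exact permutation test, adjusted p = 0.115). The region 528 bp downstream of the upstream start, which also overlaps an exon of the gene 9230102O04Rik, was called in every library at percentiles from 58.1 to 80.7 and averaged 75.3 early and 67.5 late (exact permutation test, adjusted p = 0.0624). Without replicate 2 of 48 h, whose value of 75.6 lay in the early range, the latter passed the same exact test at an adjusted p of 0.0413. A region 54 bp upstream of the downstream start was called in 1 library at 24 h and 1 at 48 h alone, and one 789 bp upstream in 8 libraries, both at 0 h and neither at 48 h, at percentiles of at most 35.7.

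The intronic Gata3 region 18248 bp downstream, with 6 motifs, was called in neither library at 0 and 2 h and in both from 4 h onwards (exact permutation test, adjusted p = 0.0130). Its percentiles were 31.4 and 32.5 at 4 h, 62.2 and 58.1 at 8 h, 51.6 and 59.9 at 16 h, 34.0 and 35.2 at 24 h, and 3.09 and 30.9 at 48 h. It was therefore strongest at 8 and 16 h and still called, but low, at 48 h. The intergenic region 14134 bp upstream was called in both libraries at 0, 2, 4 and 8 h and in none from 16 h on (exact permutation test, adjusted p = 0.0130). Before closing it changed rank, from percentiles of 35.6 and 37.4 at 0 h to 96.1 and 96.3 at 2 h, 82.6 and 86.5 at 4 h, and 56.3 and 51.5 at 8 h. The call of neither region was lost when any library was left out, but among the 50000 highest peaks per library that of the region 18248 bp downstream was (exact permutation test, adjusted p = 0.150).

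A neighbour of the region 14134 bp upstream, 13637 bp upstream of Gata3, was called at 2 h alone, at percentiles 44.5 and 64.9. It ended at base 9903782, and the region 14134 bp upstream began at base 9903836. The 2 may therefore be 1 accessible stretch, which was not tested. Another, 12787 bp upstream with 5 motifs, was called in 1 library at 8 h and both at 48 h, at 27.0, 14.7 and 48.7 (exact permutation test, adjusted p = 0.177). The region 46083 bp downstream, with 3 motifs, was called in the 48 h libraries alone, at 54.9 and 32.8 (exact permutation test, adjusted p = 0.0541, 0.0389 or 0.0388 without 1 of the 0 h libraries, and 0.0477 among the 50000 highest peaks). Here too the 0 h libraries left out had not called the region, and leaving out another library gave up to 0.0603 in the same exact test. These neighbours upstream of Gata3 thus comprised 1 region called until 8 h, 1 called at 2 h and 1 called in both libraries at 48 h. The region 22460 bp downstream was called in 10 libraries (exact permutation test, adjusted p = 0.783), and the one 17699 bp downstream in 1.

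Gata5, a relative of Gata4 and Gata6 in endoderm and heart, showed no call of change. Its promoter region, with the midpoint 216 bp downstream and spanning the TSS, was called in 12 libraries, all except replicate 2 of 4 h and replicate 2 of 24 h, at percentiles from 20.5 to 67.4 (exact permutation test, adjusted p = 0.939). The region 14357 bp downstream was called in 1 library each at 0, 4 and 8 h, at percentiles of 10.2, 17.7 and 19.4, and in both at 24 and 48 h, at 72.8, 75.9, 49.5 and 50.7 (exact permutation test, adjusted p = 0.266). The 24 and 48 h values were the highest of the 7, although the test of the calls did not pass. The region 12513 bp upstream was called in every library and averaged 33.1 early and 51.2 late, with single libraries from 13.2 to 62.8 (exact permutation test, adjusted p = 0.164). The regions 16198 and 18773 bp upstream were called in 1 library each.

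Zfpm2, the gene of FOG2, which acts with GATA4 in heart and gonad, had the fewest regions. Its promoter region, 2062 bp wide and with the midpoint 367 bp downstream, was called in 12 libraries, all except replicate 2 of 8 h and replicate 1 of 48 h (exact permutation test, adjusted p = 0.511), and among the 50000 highest peaks per library it fell (adjusted p = 0.0484). Its percentiles were 4.01 and 32.0 at 0 h, 52.8 and 46.1 at 2 h, 30.1 and 20.9 at 4 h, 23.7 in 1 library at 8 h, 12.4 and 5.32 at 16 h, and 4.79 and 0.577 at 24 h, and at 48 h 1 library stood at 13.4. The promoter was thus near the bottom of the 24 h lists. The intergenic region 49006 bp upstream, close to the 50 kb limit and with 5 motifs, was called in both libraries at 4, 8 and 16 h and in no other, at percentiles of 55.2 and 47.1, 70.6 and 67.0, and 14.3 and 51.9. The region 28407 bp upstream was called in 1 library at 0 h and both at 2 h (exact permutation test, adjusted p = 0.0733), and its neighbour 29194 bp upstream in both at 2 h. Just inside the distance limit lay the Zfpm2 region at 49006 bp and the Gata3 region at 46083 bp, and beyond it 11 regions of the 5 genes lay within 100 kb. The nearest of those, 50780 bp downstream of Gata3, was called in both libraries at 0, 16 and 24 h and in 1 each at 4 and 8 h, and the next, 51145 bp upstream of Zfpm1, in 10 libraries, none of them at 0 h.

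The number of regions called per gene was compared between the 6 late and 6 early libraries with an exact two-sided permutation test over 17700 genes, of which 3.11% were higher late and 2.08% lower after Benjamini-Hochberg adjustment. None of the 5 genes passed in this exact permutation test, and 0 had an unadjusted p under 0.05. Gata2 had 4.17 ± 0.983 regions early and 5.50 ± 0.837 late (SD, n = 6 each, exact permutation test, adjusted p = 0.289), and within 25 kb alone its difference of 2.67 regions passed (adjusted p = 0.0465, same exact test). Gata3 had 5.00 ± 0.632 and 5.33 ± 1.21 (adjusted p = 1.00, exact test), and Gata5 had 2.17 ± 0.408 and 2.67 ± 0.816 (adjusted p = 0.822, exact test). Zfpm1 had 7.83 ± 1.60 and 8.67 ± 1.37 (adjusted p = 0.822, exact test), and its 8 h libraries, outside both groups, had 11 and 10, its highest pair. Zfpm2 had 2.17 ± 0.753 early and 1.17 ± 0.753 late (adjusted p = 0.359, exact test), with 3 in each 2 h library and 0 and 1 at 48 h. The median difference over the 5 genes was 0.50 regions, against 0 over all genes.

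**Figure D4:**
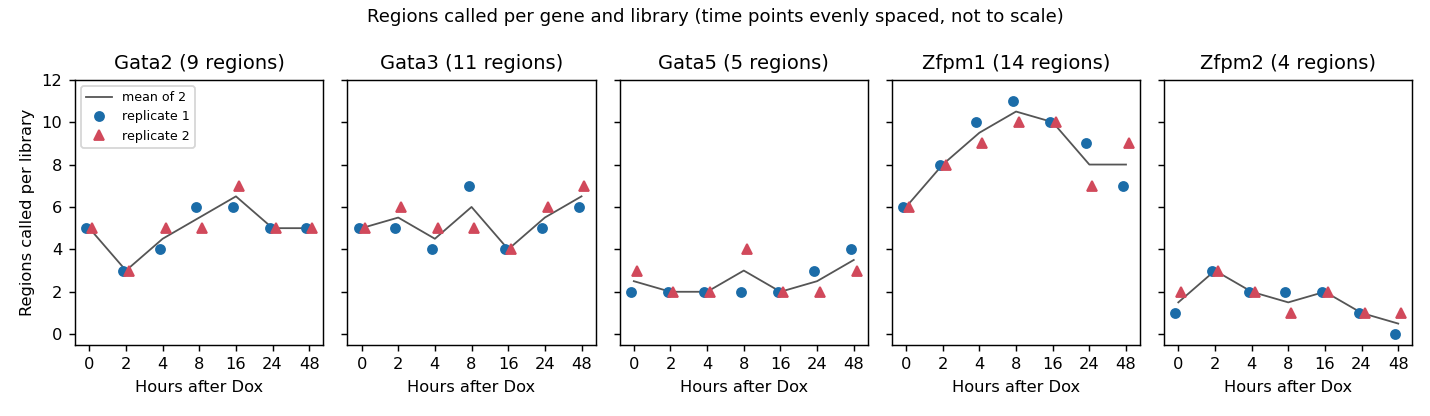
The number of regions called in each library is plotted for the 5 genes against hours after Dox (time points evenly spaced), with circles for replicate 1, triangles for replicate 2 and a line through the mean of both. Zfpm1 climbs from 6 in both 0 h libraries to 11 and 10 at 8 h and then falls back, Zfpm2 is highest at 2 h with 3, and the other 3 genes stay within 4 regions of their lowest library.

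In the central 200 bp, 7 of the 8 regions gained at 48 h (87.5%) held the GATA motif, against 57.8% of all gained regions, and 0 of the 5 lost regions did, against 22.5% of all lost ones. The exception among the gained regions was the Gata2 region 419 bp downstream of a start site. Of the 10 shared regions 2 held it (20.0%, all shared regions 18.2%), and of the 5 rising regions 4 did (80.0%, all rising regions 59.0%). The motif was in 17 of all 43 regions, or 39.5%, near the 35.5% of all regions. Shuffled motifs, AAGTAA or TAGTAA or either with G as its last letter, were in 0 of the 8 gained and 1 of the 5 lost regions, against 23.9% of all gained and 23.2% of all lost ones. These are counts over few regions and no test was made. In the RefSeq promoter table of GRCm38.p6, which covers the bases around each start, 1 of the 5 entries for these genes, that of Gata3, held the motif, where 29.8% of 32851 promoters did.

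Of 17 further genes of the pathway, other GATA factors, their complex partners and the corepressors bound by FOG, 1 had more regions late and 0 fewer. Over all 17700 genes, 3.11% had more late and 2.08% fewer. The 1 gene with more was Gata4, which rose from 4.83 ± 2.23 to 12.2 ± 1.47 regions (SD, n = 6 each, exact permutation test, adjusted p = 0.0416), while Gata6 had 6.50 ± 3.02 and 9.17 ± 1.72 (exact test, adjusted p = 0.395). By region, 17 of 105 tested rose and 6 fell. Of the rising ones 6 were at Gata4, 3 at Gata6, 2 at Ctbp2, 2 at Rbbp7, and 1 each at Gata1, Trps1, Ldb1 and Ctbp1. Of the falling ones 2 were at Trps1, and 1 each at Tal1, Mta1, Hdac2 and Rbbp7. By list, 11 of 41 tested regions rose at the 4 other GATA factors, 1 of 10 at the 3 complex partners and 5 of 54 at the 10 corepressors, beside the 5 of 30 of the 5 genes described here, where 12.1% of all tested regions rose and 12.3% fell. Differences between these lists were not tested. The median difference between late and early over these 17 genes was 0.17 regions, against 0 over all genes.

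Over the 14 libraries, the number of called regions was most like that of Zfpm1 at Sulf2 (Pearson r = 0.93), Rab27b (0.93) and Cma1 (0.91), among 11677 genes with at least 3 regions. For Gata2 these were Cobll1 (0.88), Col13a1 (0.88) and Speg (0.87), and for Gata3 Hnrnpul1 (0.88), Uvrag (0.86) and Acin1 (0.79). For Gata5 they were Ispd (0.86), Vps53 (0.84) and Nrg1 (0.83), and for Zfpm2 Spire2 (0.93), Ncoa1 (0.92) and Ror2 (0.91). The correlations are descriptions over libraries that share their depth and calling, and no test was made.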

How the data were processed

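The authors profiled KH2 ES cells by ATAC-seq and processed reads with the ENCODE ATAC-seq pipeline. The submitters' processing notes name mm10, GRCm38 and deepTools. Per the file names, the 14 deposited lists hold peaks passing an irreproducible discovery rate of 0.05 on pseudoreplicates of each library, so replicates were not pooled. Each peak carries 1 deposited score on an unstated scale, used here only as its percentile within its list (the highest peak of a region). The lists hold no reads, so depth is unknown, an uncalled region may be open below the threshold, and the study's read-count test was not run.

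Peaks were merged, called at 1 bp covered and assigned by midpoint to starts of protein-coding transcripts in GENCODE M21 (Python 3.11.15, numpy 2.4.6, pandas 2.3.3, scipy 1.17.1). Motifs were read from GRCm38.p6, and promoters from RefSeq, which matched 4 of 5 genes with 5 entries. Tests were tested on simulated data. Named regions were, per gene, the one nearest a start within 1 kb, those passing the trend test, and up to 6 regions gained or lost at 48 h. Regions described beyond these were chosen after their values were seen. The members and lists were chosen with earlier results of these data known. Deviations from time point means correlated between -0.0152 and 0.0124 over 21 pairs of time points. Replicate 2 nevertheless had the longer list at every time point, for example 60483 against 56924 peaks at 0 h and 61403 against 61393 at 8 h. Replicate number was thus tied to list length, and these correlations do not exclude such a shift. A region at Zfpm1 enters the counts but is not reported here on its own.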

Additional observations from a re-analysis of the deposited data

How the results depend on the processing

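Of 700 alternative values of 37 results, 260 came from other settings, of which 228 were scored as unchanged. The other 440 came from leaving out 1 library, of which 411 were. For tested results, unchanged meant the same direction and side of the threshold. For counts of regions it meant a value within a set ratio of the main one, and for motif shares a value inside the confidence interval of the main one. With the 50000 highest peaks per library, 4 regions fell in place of 2, and the trend of the Gata3 region 789 bp upstream turned to 0.67 rank units. With at least 50% of a region covered, 8 regions were lost and 4 shared at 48 h, the Gata5 promoter's trend was 1.25 rank units and Gata3 changed by -0.17 regions late against early. Within 25 kb, 3 regions were lost, 1 fell and the difference of Gata2 was 2.67, and within 100 kb that of Gata3 was -0.33. Gained regions numbered 13 when 1 library sufficed, and 8 were lost at 48 h against 2 h. Without the 0 h libraries 0 regions rose, in a test limited as described above. With early taken as 2 and 4 h alone, Zfpm1 changed by -0.083 regions, and its region 8793 bp upstream by -3.11 percentile points. Leaving out 1 library gave -1.17 to 4.77 for that region, with -1.17 without 0 h replicate 1 and -0.74 without 2 h replicate 1. The motif share of the 8 gained regions was 100% for GATA alone and 0% for the permuted letters. The causes were not tested.

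Leaving out 1 library at a time gave 8 to 12 gained, 5 to 7 lost and 10 to 12 shared regions at 48 h, 4 to 5 that rose and 1 to 3 that fell. The count that fell was 1 without 4 h replicate 1, 24 h replicate 1 or 24 h replicate 2. With times permuted within replicate number as a block, 1 region fell and the Gata2 regions 24154 and 40700 bp upstream both had an adjusted p of 0.0555 in the exact test. The block changed no other call. When starts of non-coding transcripts were added, chosen after seeing the data, Zfpm1 had 23 regions in place of 14. Peak lists carry no depth, so closing and falling below a threshold cannot be told apart.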
